A study of Mus musculus with 8 samples.

Results

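The respiratory chain and ATP synthase genes of complexes II to V were followed in the brains of mouse embryos with a genetic form of HLHS (hypoplastic left heart syndrome), a congenital disease with an undersized left ventricle. Members were the protein-coding genes of the deposited table whose symbol is Sdha, Sdhb, Sdhc or Sdhd or begins with Uqcr, Cox4i, Cox5, Cox6, Cox7, Cox8, Atp5, mt-Co, mt-Cytb or mt-Atp. The choice went by symbol and used no measured value, although it was made with earlier results of these data known. It gave 53 of 34866 genes, with 4 in complex II, 9 in complex III, 21 in complex IV and 19 in complex V. Of these, 47 are nuclear genes and 6 lie on the mitochondrial genome. Counts were high enough to test 49 members, and the other 4 are described with the complex IV isoforms.

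Complex II (succinate dehydrogenase) passes electrons from succinate to ubiquinone, complex III (the cytochrome bc1 complex) passes them on to cytochrome c, and complex IV (cytochrome c oxidase) hands them to oxygen. Complexes III and IV pump protons across the inner mitochondrial membrane, and complex V (ATP synthase) uses the returning protons to make ATP, on which the maturing brain depends. All subunits of complex II are nuclear, whereas complexes III, IV and V each join nuclear subunits to core subunits encoded in the mitochondrion, where genes are transcribed as long precursors that are then cut into separate mRNAs.

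The design compared 3 mutant embryos, m/m for Sap130 and m/m for Pcdha9, with 5 controls that were +/m for both genes, so the controls also carried a mutant allele of each. Sap130 encodes a subunit of a transcriptional corepressor complex and Pcdha9 an alpha protocadherin, a neuronal adhesion protein. RNA came from embryonic brain at E13.5 (mutant 260-1, controls 260-2 and 260-3) and at E14.5 (mutants 195-3 and 303-2, controls 195-2, 195-6 and 303-3). The controls are described as littermates, and the first number of each name (260, 195 or 303), here called the title number, was read as the litter, although the labels do not define it. E13.5 is represented by title number 260 alone, so stage and that number cannot be told apart. Embryos are labelled as separate samples, the brain was not divided into regions according to the labels, and no wild-type embryo was analysed here. Per-library values below follow the order 260-1, 195-3 and 303-2 for mutants and 260-2, 260-3, 195-2, 195-6 and 303-3 for controls.

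Library totals ranged from 36438282 to 47838448 counts. Levels are given as CPM, the count of a gene relative to the library total after scaling for library composition. Sap130 averaged 34.4 ± 1.65 CPM for mutants and 49.9 ± 2.14 CPM for controls (SD, n = 3 and n = 5; log2 change -0.54, adjusted p = 0.00291), and Pcdha9 averaged 13.2 ± 4.50 CPM for mutants and 20.2 ± 3.52 CPM for controls. All 10 neural markers were detected, with a summed level of 5799 to 6444 CPM for mutants and 6115 to 6909 CPM in controls. The libraries differed in the brain regions they held. The summed level of 8 Hox genes of hindbrain and cord reached 0.339 CPM in mutant 260-1 and 2.08 CPM in control 195-6, against 128 to 265 CPM in the other 6 libraries. The summed level of 8 telencephalon markers was 195 CPM in mutant 195-3, against 671 and 1060.3 CPM in the other mutants and 869.6 to 1086 CPM in controls. In such bulk RNA, fewer cells of a type and less RNA per cell cannot be told apart.

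How these genes differ in the mutant brain was asked by the genotype comparison. Of the 49 tested members, 27 were higher and 0 lower in mutants at an adjusted p under 0.05 (edgeR quasi-likelihood test, Benjamini-Hochberg adjustment over all 17357 genes tested). Among all genes tested, 10.9% were called higher and 9.74% lower. No member was lower at an unadjusted p under 0.05. DESeq2 called 32 higher and 0 lower, a count that is not read against these edgeR shares. For stage, DESeq2 called 1423 of all genes higher and 941 lower, where edgeR called 565. The median log2 change was 0.35 over the members (range -0.04 to 0.87), against -0.00 over all genes tested. Of the 22 members that did not pass, 20 had a positive estimate and 2 a negative one. In 29 of 49 members every mutant lay above every control, and in 0 every mutant lay below, against 11.3% and 8.61% of all genes tested.

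By complex, 1 of 4 members rose in complex II (median log2 change 0.21), 5 of 9 in complex III (0.39), 10 of 17 tested in complex IV (0.44) and 11 of 19 in complex V (0.34). By genome, 25 of 43 nuclear members rose, with a median log2 change of 0.34 and a range of -0.04 to 0.77. Of the mitochondrial members 2 of 6 rose, with a median of 0.64 and a range of 0.18 to 0.87.

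**Figure D1:**
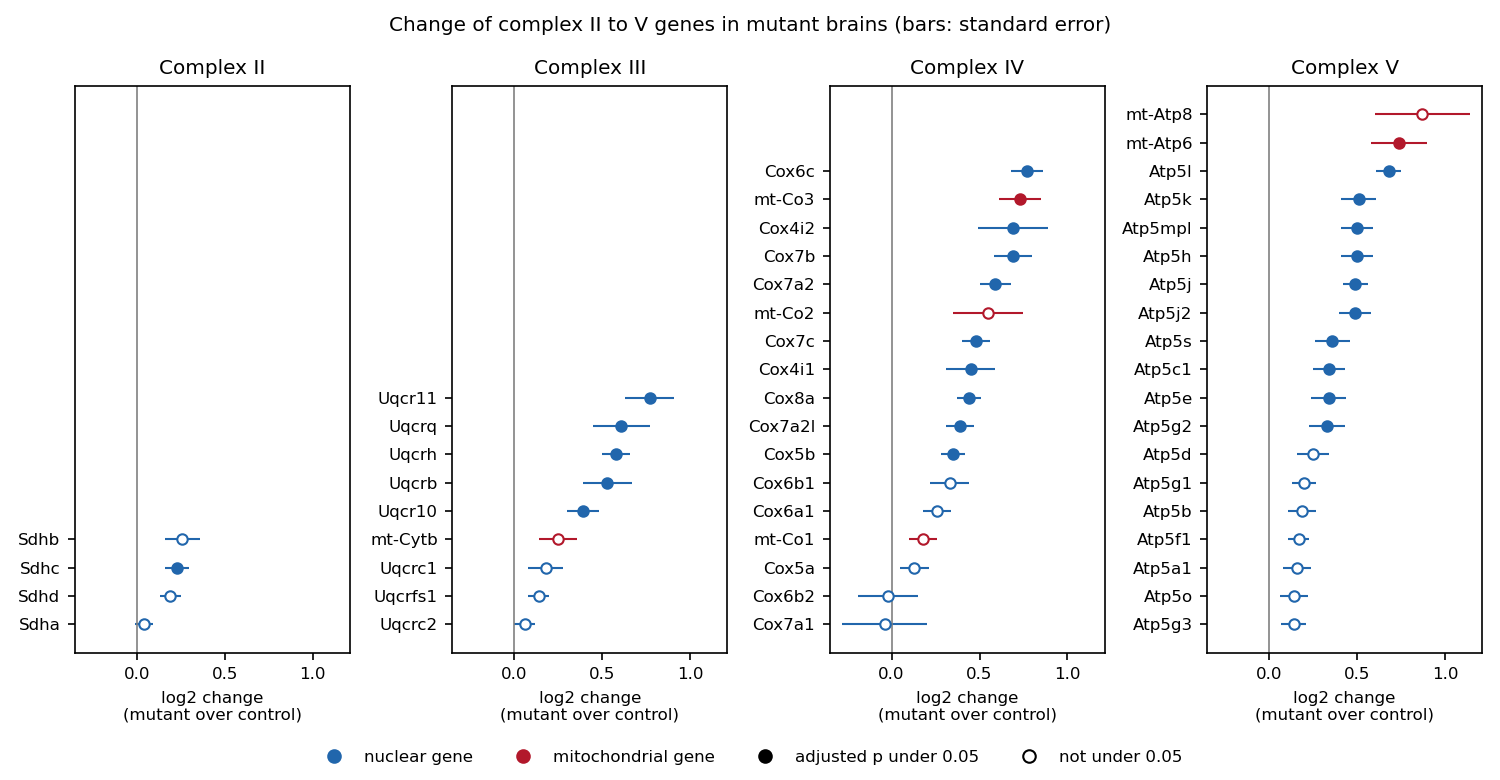
Log2 change, mutant over control, of the 49 tested members (x axis) by complex, with the standard error as a bar. Blue marks nuclear and red mitochondrial genes, and filled points passed the adjusted p threshold: the 27 filled points all lie to the right of 0, and the open points include Sdha, Uqcrc2 and Atp5a1.

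The number of members called depended on single libraries. It was 14 of 49 without control 195-2, 16 without control 303-3, 18 without mutant 303-2, 18 without control 260-2, 20 without mutant 260-1, 23 without control 195-6, 27 without mutant 195-3 and 33 without control 260-3, and 0 members were called lower in any of these. Calls over all genes moved too, with 632 higher and 685 lower without control 195-2. The members' counts in these settings are therefore not read as changes in the members alone. Over the 6 libraries with Hox expression, which leaves out mutant 260-1 and control 195-6, 20 members were higher, 19 of them among the 27. Called under every one of 20 alternative settings were 12 members: Uqcrh, Uqcr11, Cox6c, Cox7a2, Cox7c, Cox8a, Atp5l, Atp5k, Atp5j2, Atp5mpl, Atp5h and Atp5j.

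Promoter sequences are shown for 3 members that rose and for 1 that did not pass. Of the nuclear members, 36 had a RefSeq promoter window (GRCm38.p6, 250 bases before to 50 after the start), in 39 windows. Each was searched on both strands for short cores of sites of factors known to act on respiratory genes. The NRF1 core GCGCATGC was found in 7 members, in 17.9% of their windows, against 2.71% of all 32851 windows. The ETS core CCGGAAG, bound by GABP among others, was found in 12 members, in 30.8% of windows against 8.86% of all. The YY1 core AAGATGGC was found in 3 members, in 7.69% of windows against 2.75% of all. Of tested members with an NRF1 core 4 of 7 rose in mutants, against 14 of 27 without it, and of those with an ETS core 8 of 12 rose, against 10 of 22 without it. Members rose both with a core (10 of 16 with any of the 3) and without (8 of 18, among them Cox7a2, Cox7c, Cox7b, Uqcr10 and Cox5b), and Sdhb and Uqcrc1 hold an NRF1 core and did not pass. A match is a description of the letters, not a bound site. The 250 bases upstream of the start follow, 5′ to 3′ on the strand of the gene and in lower case, with NRF1 and ETS cores in capitals (further ETS cores of Atp5l and Atp5k lie in the 50 bases after the start, which are not shown). Atp5l and Uqcrh were among the members of smallest p, and Atp5k holds a palindrome that contains the NRF1 core on both strands. Sdha is shown as a window with no exact match to these cores. Near matches were not searched for, and the Sdha window holds gcgcaggcgc, which is close to the Atp5k palindrome GCGCATGCGC.
Atp5l, chr9:44920743-44920992, minus strand: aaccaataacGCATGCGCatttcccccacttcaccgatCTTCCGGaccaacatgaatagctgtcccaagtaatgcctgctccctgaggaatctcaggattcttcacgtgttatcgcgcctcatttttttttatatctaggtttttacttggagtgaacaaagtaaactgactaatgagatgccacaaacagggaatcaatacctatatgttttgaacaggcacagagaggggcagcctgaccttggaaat
Atp5k, chr5:108434400-108434649, minus strand: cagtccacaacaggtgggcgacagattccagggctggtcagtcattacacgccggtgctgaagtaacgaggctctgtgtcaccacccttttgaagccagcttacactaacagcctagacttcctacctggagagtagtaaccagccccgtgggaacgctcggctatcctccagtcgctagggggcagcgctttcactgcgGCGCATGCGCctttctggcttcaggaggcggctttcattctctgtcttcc
Uqcrh, chr4:116075071-116075320, minus strand: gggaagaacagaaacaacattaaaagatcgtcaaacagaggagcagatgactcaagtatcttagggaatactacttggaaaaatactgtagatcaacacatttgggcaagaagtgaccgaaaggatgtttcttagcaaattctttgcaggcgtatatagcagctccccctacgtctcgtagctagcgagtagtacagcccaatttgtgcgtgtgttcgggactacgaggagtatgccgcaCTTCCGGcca
Sdha, chr13:74350241-74350490, minus strand: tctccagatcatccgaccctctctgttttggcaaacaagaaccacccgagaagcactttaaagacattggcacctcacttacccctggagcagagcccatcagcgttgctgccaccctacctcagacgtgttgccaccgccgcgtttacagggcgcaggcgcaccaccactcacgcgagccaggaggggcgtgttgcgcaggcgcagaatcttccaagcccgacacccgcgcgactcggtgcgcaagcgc

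In complex II, the membrane anchor Sdhc passed the test and the catalytic subunits did not. Sdhc (ENSMUSG00000058076.12, GRCm38 chromosome 1, 171127165 to 171150603, minus strand) was at 107, 104 and 114 CPM in mutants, against 92.5, 102, 85.0, 94.9 and 88.4 CPM in controls. Each mutant lay above the highest control, and the log2 change was 0.23 (SE 0.07, adjusted p = 0.0411). The call was lost in 10 of 20 alternatives. Sdha, the flavoprotein that oxidises succinate, was at 175, 174 and 169 CPM in mutants, against 165, 177, 164, 170.2 and 163 CPM in controls. The groups overlapped, and the log2 change was 0.04 (SE 0.05, adjusted p = 0.588). The iron-sulfur subunit Sdhb stood at 120.4, 107 and 150.2 CPM in mutants, against 105, 111, 97.2, 111 and 99.9 CPM in controls, with mutant 303-2 far above the rest (log2 change 0.26, adjusted p = 0.101). The other anchor, Sdhd, was at 74.9, 79.3 and 83.1 CPM in mutants, against 67.4, 74.7, 66.9, 68.4 and 68.5 CPM in controls, a narrow separation that missed the threshold (0.19, adjusted p = 0.0583).

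In complex III, all 5 small supernumerary subunits rose (median log2 change 0.58), and 0 of the 4 core subunits that the choice of symbols takes in passed. Cyc1 (cytochrome c1), a redox core subunit whose symbol lies outside that choice, also rose (log2 change 0.34, adjusted p = 0.0433). Uqcrh, the acidic hinge protein next to cytochrome c1 (GRCm38 chromosome 4, 116066965 to 116075071, minus strand), was at 166, 150 and 141 CPM in mutants, against 99.4, 117, 96.5, 109 and 90.9 CPM in controls. The lowest mutant exceeded the highest control, and the log2 change was 0.58 (SE 0.08, adjusted p = 0.00333). Uqcr11 was at 69.2, 65.1 and 95.5 CPM in mutants, against 42.3, 53.4, 41.2, 45.7 and 42.1 CPM in controls, the largest change among the nuclear members of this complex (log2 0.77, SE 0.14, adjusted p = 0.00801, 1.71-fold). Uqcr10 was at 48.2, 49.9 and 51.6 CPM in mutants, against 35.8, 43.5, 36.9, 40.5 and 34.1 CPM in controls, again without overlap (0.39, SE 0.09, adjusted p = 0.0166). Uqcrb, named as a ubiquinone-binding protein, was at 62.3, 72.3 and 45.1 CPM in mutants, against 41.1, 47.1, 38.2, 44.1 and 37.9 CPM in controls. Here mutant 303-2 fell within the control range, and the log2 change was 0.53 (SE 0.14, adjusted p = 0.0269). Uqcrq averaged 75.4 ± 21.6 CPM for mutants and 49.2 ± 4.63 CPM for controls (0.61, SE 0.16, adjusted p = 0.0359), with mutant 303-2 highest at 100.4 CPM. The calls of Uqcrb and Uqcrq were each lost in 8 of 20 alternatives.

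The core subunits of complex III hold its redox centres and the large matrix proteins. Uqcrfs1, the Rieske iron-sulfur protein, was at 113, 102 and 105 CPM in mutants, against 96.4, 101, 95.3, 99.5 and 91.4 CPM in controls (a log2 change of 0.14, SE 0.06, adjusted p = 0.101). Uqcrc1 (core protein 1) was at 146, 152 and 203 CPM in mutants, against 142, 156, 142, 152 and 141 CPM in controls, so that mutant 303-2 alone lay above the highest control (0.18, adjusted p = 0.246). Uqcrc2 (core protein 2) was at 179, 162 and 183 CPM in mutants, against 170.1, 161, 169, 178 and 162 CPM in controls, with overlap (0.06, adjusted p = 0.56). The kit does not mark strand, and 19.7% of the annotated exon bases of Uqcrc2 are shared with Pdzd9 on the opposite strand, so their reads cannot be told apart there. Among the 4 core subunits, mt-Cytb included, 2 passed at an unadjusted p under 0.05, and DESeq2 also called 0.

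In complex IV, 9 of 14 tested nuclear subunits rose. Cox6c, a small membrane-spanning subunit, was at 185, 198 and 155 CPM in mutants, against 104, 113, 97.7, 116 and 96.7 CPM in controls. The lowest mutant lay well above the highest control (log2 change 0.77, SE 0.09, adjusted p = 0.0024). Cox7a2 was at 131, 147 and 118 CPM in mutants, against 83.7, 95.7, 82.1, 97.0 and 80.6 CPM in controls (0.59, SE 0.09, adjusted p = 0.0048). Cox8a was at 116, 126 and 121 CPM in mutants, against 84.6, 95.2, 86.6, 95.5 and 82.9 CPM in controls (0.44, SE 0.07, adjusted p = 0.00494). Both are widely expressed forms of subunits that also have muscle forms, and neither overlapped between groups. Cox7c was at 145, 149 and 127 CPM in mutants, against 97.0, 110.1, 96.2, 107 and 93.4 CPM in controls (0.48, SE 0.08, adjusted p = 0.00499). Cox7b averaged 112 ± 19.3 CPM for mutants and 69.9 ± 6.85 CPM for controls (0.69, adjusted p = 0.00624), and Cox5b, which sits on the matrix side, averaged 108 ± 7.88 CPM for mutants and 84.6 ± 5.44 CPM for controls (0.35, adjusted p = 0.0129).

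Several complex IV subunits exist in isoforms that differ by tissue. Cox4i1, the common form of subunit 4, was at 240.2, 245 and 371 CPM in mutants, against 191, 227, 198, 217 and 202 CPM in controls. Mutant 303-2 was highest, and the call (log2 change 0.45, SE 0.14, adjusted p = 0.0495) was lost in 13 of 20 alternatives. Cox4i2, known as a form induced at low oxygen, was at 1.47, 2.05 and 1.65 CPM in mutants, against 0.802, 1.29, 1.07, 1.14 and 0.965 CPM in controls (0.69, SE 0.20, adjusted p = 0.0376). Per kilobase it was a minor form, with 2.36 CPM for mutants and 1.44 CPM for controls, where Cox4i1 stood at 378 CPM for mutants and 274 CPM for controls, and its call was lost in 11 of 20 alternatives.

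Cox7a2l, a factor that joins complex III to complex IV in supercomplexes, was at 177, 179 and 195 CPM in mutants, against 138, 161, 125, 149 and 131 CPM in controls, without overlap (log2 change 0.39, SE 0.08, adjusted p = 0.0139). The muscle form Cox7a1 was at 0.587, 0.384 and 0.511 CPM in mutants, against 0.426, 0.645, 0.516, 0.459 and 0.494 CPM in controls (-0.04, adjusted p = 0.925). Per kilobase it stood at 1.26 CPM for mutants and 1.29 CPM for controls, where Cox7a2 stood at 200.2 CPM for mutants and 133 CPM for controls. Cox6a1, the non-muscle form of subunit 6A, was at 163, 171 and 182 CPM in mutants, against 125, 158, 149.8, 149 and 135 CPM in controls, a separation without overlap that just missed the threshold (0.26, SE 0.08, adjusted p = 0.0517). Cox6b1, which lies on the outer side of the complex, was at 154, 159 and 205 CPM in mutants, against 134, 155, 129.7, 144 and 123 CPM in controls (0.33, adjusted p = 0.0588). Its testis form Cox6b2 was at 2.82, 3.52 and 2.84 CPM in mutants, against 2.68, 3.80, 2.71, 3.48 and 2.89 CPM in controls, with complete overlap (-0.02, adjusted p = 0.939). Cox5a was at 113, 112 and 115 CPM in mutants, against 99.2, 119.8, 101, 108 and 92.8 CPM in controls, where control 260-3 was above all mutants (0.13, adjusted p = 0.259).

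The 4 members that could not be tested are all tissue-restricted forms of complex IV. The muscle form Cox6a2 had 6 counts in total over the 8 libraries, the testis form Cox7b2 had 29, the muscle form Cox8b had 1 and the testis form Cox8c had 1. The summed level of 8 striated muscle markers was likewise low, at 3.61 to 6.50 CPM for mutants and 3.15 to 6.30 CPM in controls.

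In complex V, all 4 small accessory subunits of the membrane part rose, and 2 of 5 subunits of the F1 head and central stalk did. Atp5l (subunit g, GRCm38 chromosome 9, 44912557 to 44920742, minus strand) was at 141, 138 and 148 CPM in mutants, against 85.0, 95.4, 81.8, 96.1 and 86.2 CPM in controls. The mutants formed a tight group well above the controls, and the log2 change of 0.68 (SE 0.07, adjusted p = 0.00173, 1.60-fold) had the smallest p of all members. Atp5j2 (subunit f) was at 116, 121 and 123 CPM in mutants, against 82.9, 99.5, 76.1, 91.4 and 78.1 CPM in controls (0.49, SE 0.09, adjusted p = 0.00709). Atp5mpl, a small proteolipid of the membrane part, was at 81.3, 82.4 and 80.1 CPM in mutants, against 55.8, 62.7, 54.9, 65.0 and 48.9 CPM in controls (0.50, SE 0.09, adjusted p = 0.00716). Atp5k (subunit e), which with subunit g supports pairing of ATP synthases in the membrane, averaged 82.2 ± 1.41 CPM for mutants and 58.2 ± 7.55 CPM for controls (0.51, SE 0.10, adjusted p = 0.00894). In all 4 of these subunits every mutant lay above every control.

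The peripheral stalk holds the F1 head still against rotation, and 2 of its 4 subunits rose. Atp5j (coupling factor 6) was at 149, 149 and 130.4 CPM in mutants, against 104, 105, 94.7, 107 and 99.2 CPM in controls (a log2 change of 0.49, SE 0.07, adjusted p = 0.00322), although 12.7% of its exon bases are shared with Gabpa on the opposite strand. Atp5h (subunit d) averaged 163 ± 17.2 CPM for mutants and 117 ± 11.9 CPM for controls (0.50, SE 0.09, adjusted p = 0.00779). The other stalk subunits changed less. Atp5f1 (subunit b) was at 262, 250.2 and 246 CPM in mutants, against 231, 239, 219, 228 and 211 CPM in controls, without overlap (0.17, SE 0.06, adjusted p = 0.0519). Atp5o, the oligomycin sensitivity conferring protein that caps the head, was at 178, 171 and 187 CPM in mutants, against 161, 184, 157, 171 and 145 CPM in controls (0.14, adjusted p = 0.23). Atp5s (coupling factor B, which is associated with the synthase) was low, at 11.5 ± 0.561 CPM for mutants and 8.99 ± 0.482 CPM for controls (0.36, SE 0.10, adjusted p = 0.0265), and lost its call in 12 of 20 alternatives.

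The F1 head carries the catalytic sites. Atp5b, the catalytic beta subunit, was the nuclear member with the highest level per kilobase, at 551 CPM for mutants and 485 CPM for controls. It was at 1064, 944 and 1159 CPM in mutants, against 920, 979.6, 908, 967 and 876 CPM in controls, with mutant 195-3 inside the control range (log2 change 0.19, SE 0.08, adjusted p = 0.116). Atp5a1, the alpha subunit that alternates with beta, was at 782, 710.1 and 911 CPM in mutants, against 731, 761, 695, 724 and 682 CPM in controls, with the same overlap (0.16, SE 0.08, adjusted p = 0.20). Of the central stalk, Atp5c1 (gamma) averaged 234 ± 33.8 CPM for mutants and 184 ± 10.4 CPM for controls (0.34, adjusted p = 0.0292) and Atp5e (epsilon) 110.2 ± 10.2 CPM for mutants and 87.5 ± 9.74 CPM for controls (0.34, adjusted p = 0.0355). The call was lost in 10 of 20 alternatives for Atp5c1 and in 8 for Atp5e. Atp5d (delta) was at 119.9, 122 and 139.6 CPM in mutants, against 102, 125, 103, 106 and 99.5 CPM in controls, and did not pass (0.25, adjusted p = 0.064).

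Subunit c, whose copies form the rotating ring, is encoded by 3 genes with different leader peptides and the same mature protein. By reads assigned to the genes themselves, Atp5g3 was highest per kilobase, at 323 CPM for mutants and 294 CPM for controls. Atp5g1 stood at 38.6 CPM for mutants and 33.3 CPM for controls, and Atp5g2 at 32.2 CPM for mutants and 25.8 CPM for controls. These levels rest on transcript lengths of 718.5, 2675.5 and 586 bases and leave out the copies of Atp5g2, which held most of its reads. They therefore do not rank the 3 genes as sources of the subunit. Atp5g3 was at 227, 238 and 232 CPM in mutants, against 201, 227, 209.7, 221 and 197 CPM in controls (a log2 change of 0.14, adjusted p = 0.159). Atp5g1 was at 92.3, 105 and 112 CPM in mutants, against 81.3, 94.3, 90.6, 90.3 and 89.1 CPM in controls (0.20, adjusted p = 0.0682). Atp5g2 was at 19.1, 17.1 and 20.4 CPM in mutants, against 14.7, 17.6, 14.4, 15.3 and 13.6 CPM in controls (0.33, SE 0.10, adjusted p = 0.0441), with mutant 195-3 below control 260-3. The call was lost in 14 of 20 alternatives. Of the reads of Atp5g2 and its pseudogene copies together, 88.3% were assigned to the copies, chiefly Gm10175, which is identical to it over the matched length. With the copies added, Atp5g2 was at 182, 143 and 157 CPM in mutants, against 133, 149, 116, 139.7 and 114 CPM in controls, and was called higher (0.32, adjusted p = 0.0267), with mutant 195-3 again below control 260-3.

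**Figure D2:**
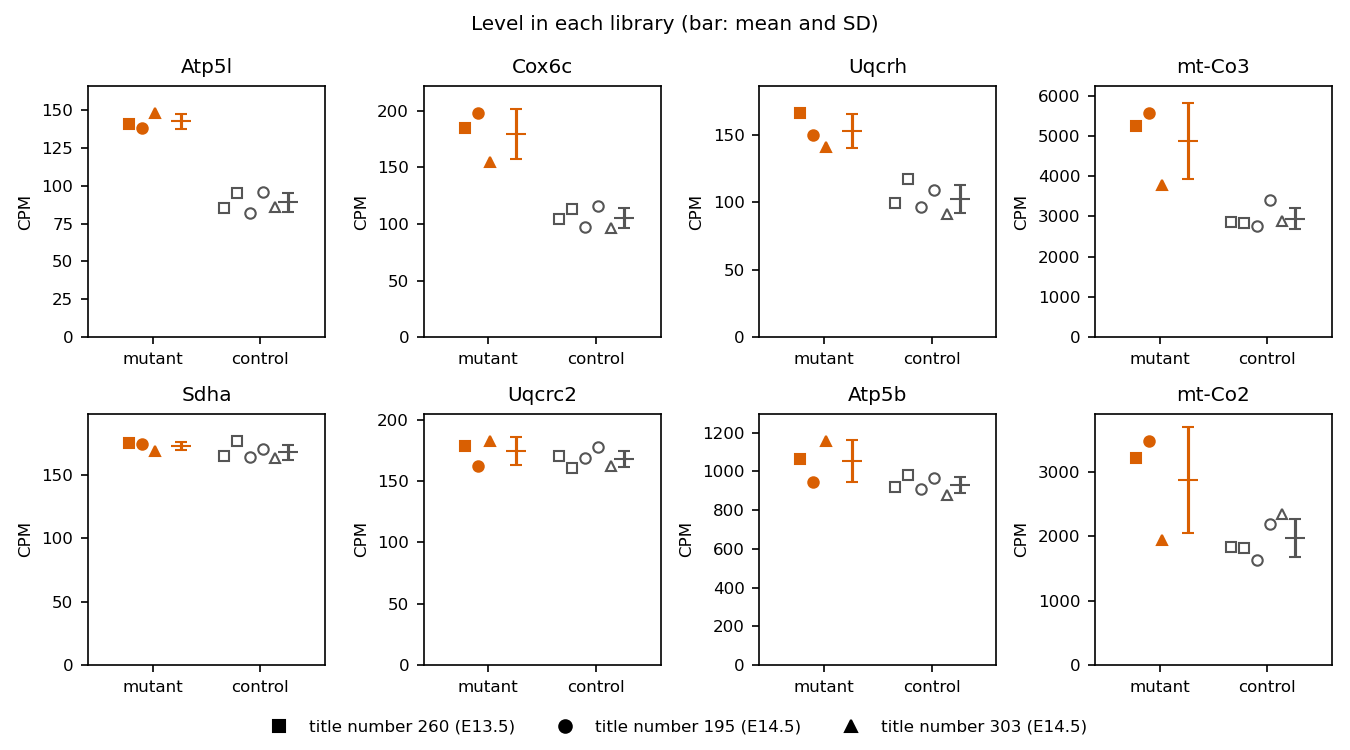
Level in CPM (y axis, from 0) of 8 members in each library, mutants in orange to the left of controls in grey, with the shape giving the title number and the bar the mean and SD. Atp5l, Cox6c, Uqcrh and mt-Co3 show no overlap between groups, while the groups overlap for Sdha, Uqcrc2, Atp5b and mt-Co2.

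Across the nuclear members, the catalytic and core subunits of complexes II, III and V are set beside the rest, a difference that was not tested. Cyc1, a core subunit of complex III that rose, is not counted here, because its symbol lies outside the choice. Of the 10 catalytic and core members 2 rose (median log2 change 0.18), against 23 of the 33 other nuclear members tested (median 0.44). These groups also differed in transcript length, with medians of 1508 and 645 bases. Over the 43 nuclear members, Spearman's correlation of transcript length with log2 change was -0.43, a description across genes that share the same libraries. Over 17288 tested genes with a length it was -0.28. Of nuclear members under 600 bases 11 of 14 rose, from 600 to 1000 bases 9 of 13, from 1000 to 2000 bases 4 of 12 and from 2000 bases 1 of 4. Among all genes tested, 21.1%, 27.1%, 17.1% and 6.91% were called higher in these length ranges. The median log2 changes among all genes were 0.08, 0.23, 0.11 and -0.04, and among the nuclear members 0.46, 0.49, 0.22 and 0.18.

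A smooth correction for transcript length and GC content in each library took the correlation over all genes to -0.03 and that over the nuclear members to -0.31. With it 27 members were higher and 0 lower, 24 of them among the original 27. The share of all genes tested that were called higher was then 17.4%, and 6.64% were called lower. The median over the members was 0.28, against 0.07 over all genes. Nuclear members of the catalytic and core parts then had a median of 0.20, with 3 of 10 called, and the others 0.32, with 21 of 33 called. Differences of this kind also occurred between controls: the nuclear members were higher in control 260-3 than in control 260-2 by a median log2 difference of 0.18, and in control 195-6 than in control 195-2 by 0.14. The part of transcript length in the difference between mutants and controls was not tested beyond this correction.

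**Figure D3:**
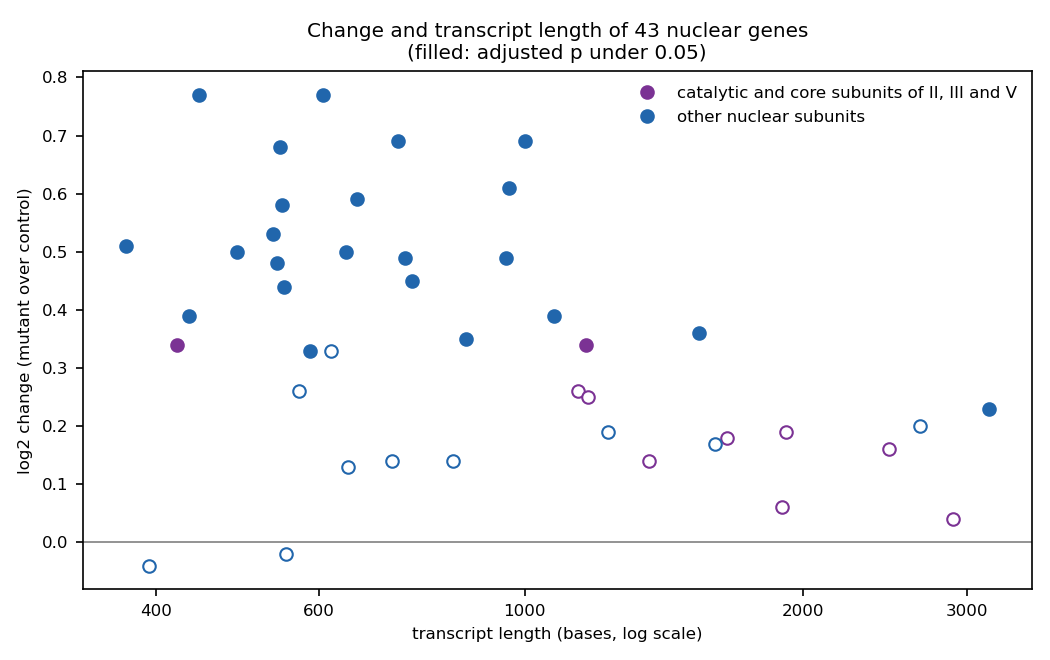
Log2 change, mutant over control (y axis), against transcript length in bases (x axis, log scale) for the 43 tested nuclear members, with purple points for catalytic and core subunits of complexes II, III and V and filled points for members that passed. Filled points are most frequent under 1000 bases, and most catalytic and core subunits lie above 1000 bases with small changes.

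The mitochondrial members are cytochrome b of complex III, the core subunits of complex IV and a pair of membrane subunits of complex V, and all 6 lie on the plus strand of the mitochondrial genome. In order along it their log2 changes were 0.18 for mt-Co1, 0.55 for mt-Co2, 0.87 for mt-Atp8, 0.74 for mt-Atp6, 0.73 for mt-Co3 and 0.25 for mt-Cytb. Among these 6, the members with the larger changes were neighbours, from mt-Co2 to mt-Co3. Larger changes were not confined to them: mt-Nd3 stood at 1.44, mt-Nd2 at 0.50 and mt-Nd1 at 0.49. The other complex I genes of this genome were at 0.19 (mt-Nd6), 0.15 (mt-Nd4), 0.08 (mt-Nd4l) and 0.01 (mt-Nd5). In addition, mt-Co1, mt-Co2, mt-Atp6 and mt-Co3 share reads with copies in the nuclear genome, described below. mt-Atp8 shares 43 bases, 21.1% of its length, with mt-Atp6 on the same strand, so their reads are not separable there.

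mt-Co3, a core subunit of complex IV (chromosome M, 8607 to 9390), was at 5240.2, 5568 and 3786 CPM in mutants, against 2859.9, 2824, 2749.9, 3398 and 2875 CPM in controls. All mutants exceeded all controls, with mutant 303-2 the nearest (log2 change 0.73, SE 0.12, adjusted p = 0.00681, 1.65-fold). mt-Atp6, the subunit a that forms the proton path beside the ring, was at 2789, 3055 and 1865 CPM in mutants, against 1375, 1389.6, 1421, 1737 and 1749 CPM in controls (0.74, SE 0.16, adjusted p = 0.0172). Mutant 303-2 again lay nearest to the controls. mt-Co2, which receives electrons from cytochrome c, was at 3212, 3485 and 1938 CPM in mutants, against 1836, 1816, 1635, 2197 and 2347 CPM in controls, and mutant 303-2 fell inside the control range (0.55, SE 0.20, adjusted p = 0.0945).

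mt-Co1, the subunit that reduces oxygen, had the highest mitochondrial level per kilobase in controls, at 4938 CPM, but not in mutants, where mt-Co3 stood at 6205 and mt-Co1 at 5599.8. mt-Co1 was at 9136, 8699.6 and 8120 CPM in mutants, against 7846, 6718, 7714, 8162 and 7707 CPM in controls (a log2 change of 0.18, SE 0.08, adjusted p = 0.125). Mutant 303-2 lay just below control 195-6. mt-Cytb, cytochrome b of complex III, was at 3148, 3021 and 2405 CPM in mutants, against 2409, 2058, 2587, 2560 and 2439.6 CPM in controls (0.25, SE 0.11, adjusted p = 0.121), with mutant 303-2 below 4 of the controls. mt-Atp8, a small subunit of the membrane part, was at 669, 648 and 401 CPM in mutants, against 362, 216, 344, 404 and 243 CPM in controls (0.87, SE 0.27, adjusted p = 0.0623).

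The genomes differed in which embryos were high. The 47 nuclear members together took 0.656%, 0.658% and 0.715% of library counts in mutants, against 0.564%, 0.627%, 0.549%, 0.587% and 0.536% in controls, with no overlap and mutant 303-2 highest. The 6 mitochondrial members took 2.34%, 2.44% and 1.79% in mutants, against 1.7%, 1.54%, 1.66%, 1.84% and 1.76% in controls, so that mutant 303-2 lay within the control range. With copies added it still did, at 1.95% against 1.72% to 2.03% in controls. The ratio of mitochondrial to nuclear member counts was 3.57, 3.70 and 2.50 in mutants, against 3.01, 2.46, 3.03, 3.14 and 3.28 in controls. Mutants 260-1 and 195-3 had the highest ratios of the 8 libraries, and mutant 303-2 the lowest but for control 260-3.

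**Figure D4:**
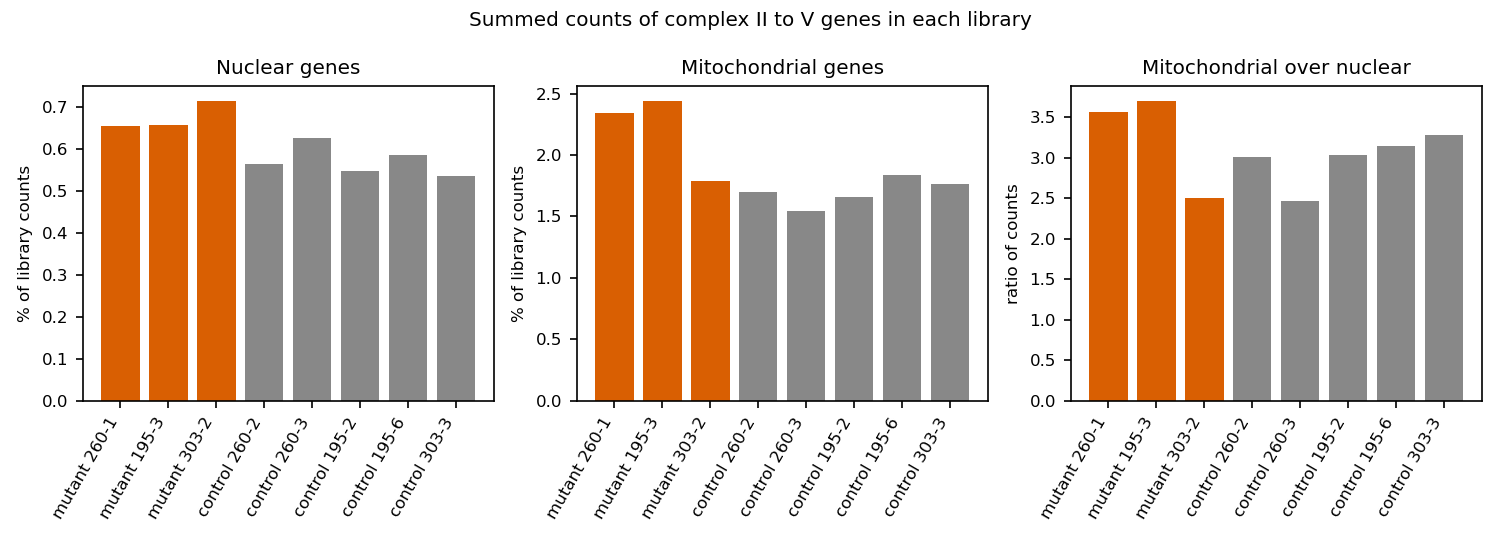
Summed counts of the nuclear and of the mitochondrial members as a percentage of library counts, and their ratio, as bars from 0 for each library, mutants in orange to the left of controls in grey. For nuclear genes the 3 mutants stand above all controls, and for mitochondrial genes mutant 303-2, at 1.79%, stands among them.

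The genomes were also compared gene by gene within title numbers. For the nuclear members the median log2 difference between a mutant and the mean of its controls was 0.21 in title number 260, 0.24 in 195 and 0.50 in 303, with 41, 41 and 42 of 43 members positive. For the mitochondrial members it was 0.85, 0.83 and 0.08, with 6, 6 and 4 of 6 positive. Title number 303 holds a single control, 303-3, in which copies of mt-Co2 and mt-Atp6 in the nuclear genome had almost no reads, as described below. With the counts of such copies added, the mitochondrial median was 0.82, 0.79 and 0.32, with 6, 6 and 5 of 6 positive, and the nuclear median 0.21, 0.24 and 0.49. The difference between the genomes within title numbers was not tested. For Uqcrq the differences were 0.29, 0.35 and 1.19 and for Cox4i1 0.21, 0.24 and 0.88, whereas for mt-Co2 they were 0.81, 0.88 and -0.28. With copies added, mt-Co2 turned positive in 303, with differences of 0.77, 0.78 and 0.21, and mt-Atp6 stood at 0.43 there, against 0.09 without them. Left out of the fit, mutant 303-2 changed the counts in opposite ways: 14 of 43 nuclear and 4 of 6 mitochondrial members were then higher. The fall in nuclear calls was not particular to it, with 14 without control 303-3, 13 without control 195-2 and 16 without control 260-2. Among the E14.5 samples alone 18 of 43 nuclear and 0 of 6 mitochondrial members were higher, and over the 6 libraries with Hox expression 19 of 43 and 1 of 6. Mutant 303-2 also had the highest sums of erythroid markers (2414 CPM, against 1253 and 1083 in the other mutants and 1074 to 1660.2 in controls) and of mesenchyme markers (946 CPM, against 534 and 808 in the other mutants and 491 to 737 in controls). The same held for microglia markers (77.4 CPM, against 43.5 and 57.1 in the other mutants and 51.8 to 61.3 in controls) and, narrowly, for striated muscle markers (6.50 CPM, against 3.61 and 4.54 in the other mutants and 3.15 to 6.30 in controls). Single markers could differ from these sums. Among microglia markers in mutant 303-2, C1qb was at 21.9 CPM (9.2 to 12.2 in controls) but Cx3cr1 at 8.49 CPM (8.83 to 11.2 in controls). Among mesenchyme markers there, Col3a1 was at 413 CPM (192 to 297 in controls) but Pdgfra at 41.4 CPM (35.8 to 58.4 in controls). The part of these cell types in the result was not tested.

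**Figure D5:**
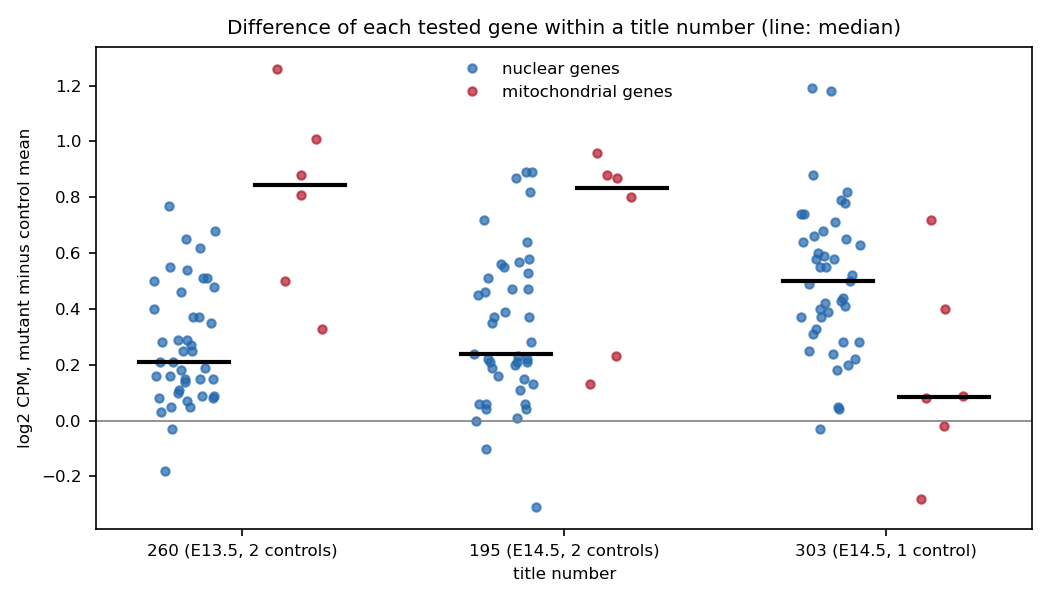
Log2 CPM difference between the mutant and the mean of its controls (y axis) for each tested member, by title number (x axis), with nuclear members in blue, mitochondrial members in red and the median as a black line. The red medians are 0.85 and 0.83 in title numbers 260 and 195 and 0.08 in 303, while the blue medians are 0.21, 0.24 and 0.50. With the counts of nuclear copies added, which are not plotted, the mitochondrial median in 303 was 0.32.

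Copies of mitochondrial genes in the nuclear genome share reads with the mitochondrial members. Adjacent pseudogene rows on chromosome 1 (GRCm38, 24613189 to 24616197) are 100% identical to mt-Co2 (Gm28661), mt-Atp6 (Gm10925) and mt-Co3 (Gm28437) over the matched length and 99.8% identical to mt-Co1 (Gm29216). Gm28661 was at 1089, 1048 and 793 CPM in mutants, against 683, 695, 775, 695 and 7.27 CPM in controls, so that control 303-3 stood far below all other libraries. Gm10925 was at 1229, 1129 and 506 CPM in mutants, against 729, 429, 460.1, 719 and 16.7 CPM in controls, with control 303-3 again the low one. The division of reads between a copy and its member thus differed between libraries.

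With the counts of copies added to their members, mt-Co2 was at 4301, 4534 and 2731 CPM in mutants, against 2519, 2512, 2410.5, 2892 and 2355 CPM in controls. It then passed the test (log2 change 0.61, adjusted p = 0.0263), although control 195-6 lay above mutant 303-2. mt-Atp6 kept its call (0.81, adjusted p = 0.026) and mt-Co3 too (0.72, adjusted p = 0.00706). The copies made up 23.9% of the sum for mt-Co2, 25.4% for mt-Atp6, 4.37% for mt-Co1 and 1.69% for mt-Co3. Among nuclear members, copies made up 88.3% of the sum for Atp5g2, 12.5% for Atp5l and 9.72% for Cox7c, and with them added the log2 changes were 0.32 (adjusted p = 0.0267), 0.67 (adjusted p = 0.00254) and 0.48 (adjusted p = 0.00504).

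Other genes of the pathway were taken from lists of complex I subunits, carriers, assembly factors, regulators and enzymes of the tricarboxylic acid cycle. None of these lists held a gene called lower. Each count is to be read beside the 10.9% of all genes tested that were called higher. Of 36 nuclear complex I subunits 22 rose (median log2 change 0.33), among them Ndufb6 at 60.3 ± 3.98 CPM for mutants and 36.3 ± 2.38 CPM for controls (0.73), and of 7 mitochondrial ones 3 did (0.19), with mt-Nd3 at 193 ± 53.6 CPM for mutants and 71.5 ± 22.3 CPM for controls (1.44). Cyc1 (cytochrome c1 of complex III) and Ndufa4, a subunit of complex IV, have symbols outside the rule. Ndufa4 was at 184 ± 29.7 CPM for mutants and 120.0 ± 8.04 CPM for controls (0.62, adjusted p = 0.0053), and the electron carrier Cycs rose by 0.35 (adjusted p = 0.00859). The ADP/ATP carrier Slc25a5 rose by 0.40 (adjusted p = 0.0139), while its relative Slc25a4 (0.13, adjusted p = 0.228) and the phosphate carrier Slc25a3 (0.12, adjusted p = 0.182) did not pass.

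Assembly factors rose in 3 of 4 cases for complex II (Sdhaf1, Sdhaf3 and Sdhaf4), in 1 of 6 for complex III (Uqcc3) and in 8 of 22 for complex IV. Pet100, a small complex IV factor, was at 22.2 ± 4.41 CPM for mutants and 10.9 ± 1.45 CPM for controls (log2 change 1.03, SE 0.14, adjusted p = 0.00346), and Coa6 and Coa3 rose by 0.75 and 0.54. For complex V 0 of 4 passed, with 2 at an unadjusted p under 0.05, and DESeq2 called 1. Of 12 genes of mitochondrial transcription and RNA handling 2 rose, Slirp (0.85, adjusted p = 0.00779), which binds mitochondrial mRNAs, and Ssbp1 (0.46, adjusted p = 0.0108). Of 9 regulators of mitochondrial biogenesis 1 rose, the nuclear receptor Esrra (0.37, adjusted p = 0.032), and their median was -0.01. The counts of 1 of 9, of 2 of 12 and, for complex III assembly, of 1 of 6 were near the share of all genes called higher and are no result about those lists. The coactivator Ppargc1a (-0.19, adjusted p = 0.303), Nrf1 (-0.02, adjusted p = 0.905), Gabpa (0.14, adjusted p = 0.275) and Yy1 (0.04, adjusted p = 0.738) did not pass. Of 13 tricarboxylic acid cycle enzymes 3 rose, Suclg1, Suclg2 and Fh1, with log2 changes of 0.40, 0.42 and 0.28.

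The comparison of E14.5 with E13.5 asked whether the members change over this day of development. Of 49 members 0 passed, where 3.26% of all genes tested did, and 0 had an unadjusted p under 0.05. DESeq2 also called 0 members, although over all genes it called 1423 higher and 941 lower. The calls over all genes hung on single libraries: against 565 with all 8, there were 0 without control 260-3, 195-2 or 303-3, 10 higher and 0 lower without control 260-2, 14 higher and 6 lower without mutant 260-1, 743 higher and 579 lower without mutant 195-3, and 936 higher and 483 lower without control 195-6. The members' count of 0 is therefore not read against that share. The estimates for E14.5 over E13.5 ran from -0.23 for Cox7a1 to 0.13 for Cox4i2, with a median of -0.03. With title number 260 as the only E13.5 source, these values set 3 libraries against 5.

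Whether the mutant difference depended on stage was tested by the interaction term. Of 49 members 0 passed, with 0 at an unadjusted p under 0.05 and 0 by DESeq2, where 0.104% of all genes tested were called by edgeR. That share too was unstable: DESeq2 called 182 genes higher and 60 lower, and with mutant 303-2 left out edgeR called 505 higher and 546 lower. With mutant 195-3 left out it called 71 higher and 50 lower, and with control 195-6 left out 63 higher and 17 lower. The estimates, E14.5 minus E13.5, were positive in 38 of 43 nuclear members (median 0.14) and in 0 of 6 mitochondrial members (median -0.41, from -0.54 for mt-Atp8 to -0.23 for mt-Co1). These values moved with single libraries. Without control 260-3 the nuclear members were positive in 23 of 43 cases (median 0.02). The mitochondrial median was -0.13 without mutant 303-2 and -0.70 without mutant 195-3. At an unadjusted p under 0.05 there were 12 of 49 members without mutant 195-3 (8 nuclear and 4 mitochondrial) and 4 without control 260-2, and 0 passed the adjusted threshold in either. A single mutant stands for E13.5 in this term, and a difference between the genomes in it was not tested.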

How the data were processed

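RNA from embryonic brain was made into TruSeq v2 libraries, a kit that selects poly(A) RNA and does not mark strand, per the labels' protocols. The authors deposited a table of estimated counts per gene, of which 66.0% to 68.9% were whole numbers (tolerance 1e-06), so some reads were divided between genes. The submitters' processing notes name TopHat2 2.0.9, HTSeq 0.5.4p5, edgeR 3.4.2 and the builds mm10 and GRCm38, and the counting step behind the fractions is not stated there.

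From the deposited counts, rounded to whole numbers, genes were filtered with filterByExpr (minimum count 10), scaled by TMM and tested with edgeR 4.0.16 in R 4.3.3 (quasi-likelihood F test with stage and genotype as terms, adjusted p threshold 0.05 over all 17357 genes tested). The common biological coefficient of variation was 14.27%. A model with an interaction term gave the dependence on stage. Levels are CPM on TMM-scaled totals. Differences within title numbers added a constant of 0.0463 CPM. Symbols, coordinates and transcript lengths came from GENCODE M21 (GRCm38), and promoters from RefSeq (GRCm38.p6). Pseudogene copies were transcripts matching a member at 90% identity or more over at least 50% of their length (77 genes for 26 members). The procedure was run on simulated counts with less spread between libraries than these data and no stage, litter or region effect. That run checks the code and cannot show how far the calls reported here hold.

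Members, lists and the 20 alternatives were chosen with earlier results of these data known. Named with values were, for each complex and genome, up to 4 passing members of smallest p, the members that did not pass, the paired isoforms, the mitochondrial members and up to 3 passing genes of each further list; other members and genes were named after their values were seen. Alternatives changed the scaling (RLE, upper quartile, nuclear protein-coding totals), the filter, the test (DESeq2 1.42.0), the stage term, the replicate block, a length and GC offset, the treatment of copies, and the libraries used. P-values set a difference against the spread left between these embryos. The main fit treated embryos that share a title number as independent.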

Additional observations from a re-analysis of the deposited data

Results flagged for a closer look

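In controls, 3 members had a library far from the others, measured as its gap to the nearest library over the whole range of the group. Chance gives such a gap in about 1 in 20 groups. With 49 members tested, a few such gaps come by chance, so these 3 are no result about the members. For Sdhd the ratio was 0.797, with control 260-3 at 74.7 CPM and the next control at 68.5 CPM. For mt-Co3 it was 0.806, with control 195-6 at 3398 CPM and the next at 2875 CPM. For Atp5d it was 0.755, with control 260-3 at 125 CPM and the next at 106 CPM.

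For Uqcrc1 the log2 difference between mutant and controls was -0.03 in the E13.5 title number, against 0.04 and 0.52 in the E14.5 title numbers, and the interaction term for stage did not pass (0.32, adjusted p = 0.657).

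Of 7 pseudogene copies with at least 1000 counts over all libraries, 3 had every mutant above every control, against 11.3% of all genes tested. Each of these 3 is 100% identical to its member over the matched length, so reads of the member may be divided with it. The count of 3 is therefore not read against that share. All 12300 pseudogene rows together took 1.22%, 1.08% and 0.992% of counts in mutants, against 0.748% to 0.972% in controls. Gm10221, a copy of Atp5l, averaged 17.9 CPM in mutants and 11.7 CPM in controls. Gm12338, a copy of Cox7c, averaged 14.7 CPM in mutants and 10.7 CPM in controls. Gm28661, the copy of mt-Co2, averaged 976 CPM in mutants and 571 CPM in controls, with control 303-3 at 7.27 CPM, and was not called (log2 change 0.82, adjusted p = 0.659).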

How the results depend on the processing

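No member was called lower under any of the 20 alternatives for the genotype comparison. Leaving out 1 library at a time gave 14 to 33 members higher, 13 to 31 nuclear, 1 to 4 mitochondrial, 0 to 2 in complex II, 2 to 5 in complex III, 6 to 12 in complex IV and 6 to 14 in complex V. With E14.5 samples alone the counts were 0 mitochondrial, 0 in complex II, 3 in complex III and 6 in complex IV. Over the 6 libraries with Hox expression they were 1 mitochondrial, 0 in complex II and 7 in complex V. DESeq2 called 4 mitochondrial members. Complex II had 0 with upper quartile factors, with the replicate block and without the stage term, where complex V had 7. Calls over all genes also moved between settings, so counts under the alternatives are not read as changes in the members alone. The causes were not tested. The sign turned for Sdha with upper quartile factors (-0.0082), for Uqcrc2 with the length and GC offset (-0.0011, and -0.0043 with the replicate block too) and for Cox6b2 over the Hox libraries (0.19) and at E14.5 (0.081). With a library left out, Cox6b2 ran from -0.17 to 0.08 and Cox7a1 from -0.14 to 0.07. None of these passed the test in any setting named here.

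The replicate block by title number called 22 members, 21 of them among the 27, and 0 of 5 F1 subunits (Atp5c1 adjusted p = 0.0525, Atp5e 0.0611). It called 4 of 5 supernumerary subunits of complex III (Uqcrq 0.0584), 0 of 10 nuclear catalytic and core subunits and 19 of the 33 other nuclear members. Deviations of same-numbered samples correlated at 0.202 (260), 0.0316 (195) and 0.15 (303). Mutants 260-1 and 303-2 correlated best with controls of their own number, and mutant 195-3 with the control of 303 (0.233). With 3 mutants that also differ in the regions they hold, these values cannot settle whether the numbers pair the samples. The main fit used no block, and the block is given here as an alternative. Stage under the block or at E14.5 alone, and the interaction at E14.5 alone, over the Hox libraries or without mutant 260-1, could not be estimated. With 3 mutants, small changes in members of low level such as Cox7a1 were not detectable.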
